A study of Homo sapiens with 20 samples.

Results

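The mRNAs of 9 SR splicing factors (*SRSF1*, *SRSF2*, *SRSF3*, *SRSF4*, *SRSF5*, *SRSF6*, *SRSF7*, *SRSF10* and *SRSF11*) and of the kinase *CLK1* were followed in WT and *ALKBH5* knockout (A5-KO) human cells. These 10 genes were taken by Ensembl identifier from 60623 identifiers in the tables of pancreatic progenitors (PPs) and 60624 in those of islet-like organoids (hILOs), and all 10 were found in both. They passed the filter of a mean value of at least 1 in every comparison. The cells came from MEL1, a human embryonic stem cell line with a GFP reporter at the insulin gene. The A5-KO line was made from MEL1 with CRISPR-Cpf1 aimed at exon 1 of *ALKBH5*, the gene of an m6A RNA demethylase, and was grown from a picked colony, so that knockout and clone cannot be told apart. PPs of both genotypes were collected after 0, 1, 2 or 3 h in actinomycin D (Act D, 1 μg/ml), which blocks transcription, which made 8 groups of 2 libraries. Untreated hILOs gave 2 WT and 2 A5-KO libraries. PP values are CPM, the reads of a gene as a share of its library, scaled to 1000000 reads, and hILO values are TPM, which also divides by transcript length.

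SR proteins carry RNA recognition motifs and a domain rich in arginine and serine, bind exons and guide the choice of splice sites. Kinases of the SRPK family phosphorylate them in the cytoplasm and those of the CLK family, CLK1 among them, in the nucleus, which controls where they are and how they act. Many SR genes limit their own mRNA through exons whose inclusion brings a premature stop and nonsense-mediated decay (NMD), and *CLK1* mRNA is known to be held in the nucleus with introns retained. m6A, the mark that ALKBH5 removes, is read in the nucleus by YTHDC1, which is known to bind SRSF3 and SRSF10.

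The 16 PP libraries held 30516384 to 35206514 reads, recovered from the CPM steps. Untreated WT PPs expressed *ALKBH5* at 149 and 172 CPM, and untreated A5-KO PPs at 19.1 and 18.8 CPM. Its level in hILOs was 78.8 and 81.9 TPM without the knockout, against 4.16 and 3.42 TPM with it. Of 5 progenitor markers, *PTF1A* was under 0.5 CPM in all 16 PP libraries, and the 5 together summed to 906 and 694 CPM in WT and 735 and 640 CPM in A5-KO PPs at 0 h. Of 5 islet markers, *INS* and *GCG* were under 0.5 CPM in every PP library, and the 5 summed to 34284 and 36621 TPM in hILOs of WT, against 27546 and 26340 TPM in those of A5-KO. A hepatocyte marker list of 5 genes was higher in A5-KO than in WT, at 1652 and 1684 against 949 and 1009 CPM in PPs at 0 h and at 32120 and 32005 against 16013 and 16215 TPM in hILOs. A mesenchyme list of 5 was higher as well, at 196 and 200 against 111 and 118 CPM in PPs at 0 h and at 47.3 and 40.8 against 13.7 and 6.51 TPM in hILOs. A pluripotency list of 5 summed to 249 and 234 CPM in A5-KO against 124 and 121 CPM in WT PPs at 0 h, of which *LIN28A* held 246 and 230 against 119 and 115 CPM, and it was at 4.32 to 5.76 TPM in hILOs. *NANOG* and *POU5F1*, the defining genes of that list, were under 0.5 in all 20 libraries. The part of these lists in the differences between genotypes was not tested. In bulk RNA, fewer cells of one type and less RNA per cell cannot be told apart.

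All 10 members have an annotated transcript of the NMD class in GENCODE, as do 47.6% of the 12208 tested genes with a coding canonical transcript. A retained-intron transcript is annotated for 9 of 10, against 60.9% of those genes, with 8 each for *CLK1* and *SRSF5* and 0 for *SRSF6*. The members have 6 to 19 annotated transcripts each, and the median of those genes is 8. The canonical transcripts were searched on the transcript strand for ATTTA, the core of AU-rich elements that shorten the life of many mRNAs, and for GGACT, the most frequent form of the m6A motif. These motifs cannot overlap each other, and overlapping copies of ATTTA were counted. ATTTA lay in the 3′ UTR of 10 of 10 members (73.9% of 12208 canonical transcripts), with 1 copy in *CLK1*, *SRSF4* and *SRSF5* and up to 25 in *SRSF10*. Per kb of 3′ UTR it was lowest in *SRSF4* and highest in *SRSF11* (4.45), against a median of 1.75. GGACT was found in 9 of 10 members, all but *SRSF5*, and in 91.8% of all canonical transcripts. m6A itself was not analysed here.

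The first ATTTA of the 3′ UTR is shown for *CLK1* and *SRSF6*, whose mRNAs dropped most in the first hour of Act D, and for *SRSF11*, whose mRNA dropped least in WT. The capitals mark the motif, and each window lies in the 3′ UTR on GRCh38.
*CLK1*, chr2:200853099-200853123, minus strand: ttgtaaagtgATTTAttcagaataa
*SRSF6*, chr20:43461317-43461341, plus strand: gattaagctcATTTAgtgttgtttt
*SRSF11*, chr1:70250945-70250969, plus strand: catattagttATTTAcatcaaaaag
The motif stood in the 3′ UTR of every member, so its presence does not set these 3 apart.

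The GGACT nearest the stop codon is shown for *SRSF7*, *SRSF10* and *SRSF2*, the 3 members in which it lay closest, since m6A is known to gather around stop codons. Distances run from the last base of the stop codon to the G that opens the motif.
*SRSF7*, chr2:38745125-38745149, minus strand, 6 bases before that point: ctgaaagaatGGACTgaagctctca
*SRSF10*, chr1:23971156-23971180, minus strand, 28 bases before it: tcaaggtcttGGACTagtcctaagt
*SRSF2*, chr17:76735118-76735142, minus strand, 34 bases into the 3′ UTR: tgtaaacggaGGACTtggggaaaaa
A match is a match of letters only.

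Some exons are shared with other genes. *SRSF1* (chr17:58000919-58007346, minus strand) shares 32.7% of its exon bases with the protein-coding gene ENSG00000266086 on the same strand. That gene was at 0 CPM in all 16 PP libraries but read 111 and 105 TPM in hILOs of WT and 92.5 and 94.6 TPM in those of A5-KO, more than *SRSF1* itself, so the hILO level of *SRSF1* is uncertain. *SRSF6* (chr20:43457893-43466046, plus strand) shares 13.4% with ENSG00000288000, at 0 CPM in PPs and a mean of 22.9 TPM in hILOs. How reads on shared exons were counted in PPs is not given in the sources used here. The PP levels of *SRSF1* and *SRSF6* are therefore uncertain too. *SRSF2* (chr17:76734115-76737333, minus strand) shares 27.7% with *MFSD11* on the opposite strand, and strandedness of the counting is not given in the sources used here. *CLK1* (chr2:200853009-200864691, minus strand) shares none.

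Untreated WT PPs held the SR mRNAs at very unequal levels. Divided by the length of the merged exons, *SRSF3*, an export and splicing factor and the shortest SR protein, was highest at 68.6 ± 3.5 CPM per kb (SD, n = 2). *SRSF5* at 64.9 ± 0.99 and *SRSF2* at 63.3 ± 3.4 followed, and their ranges overlapped, so their order is not resolved. *SRSF7* (53.3 ± 1.9) and *SRSF6* (46.0 ± 3.2) came next, then *SRSF11* (28.5 ± 0.051), *SRSF10* (18.5 ± 0.81), *SRSF1* (14.1 ± 0.71), *SRSF4* (12.2 ± 0.72) and *CLK1* (9.35 ± 1.2), all in CPM per kb. No other neighbours in this order overlapped. The order rests on this divisor, as merged exons hold the bases of every annotated transcript. They span 5357 bases for *SRSF5* and 5117 for *CLK1*, whose canonical transcripts have 1496 and 1847 bases. For *SRSF3* the lengths are 7118 and 4228 bases. An order by canonical length was not computed. In WT hILOs *SRSF5* led at 358 ± 9.2 TPM and *SRSF10* was lowest at 24.2 ± 0.41 TPM, while *CLK1* stood at 84.0 ± 4.6 TPM, in the middle of the order. The PP and hILO tables were normalised separately and their units differ, so levels were not compared between the stages.

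All 10 mRNAs were lower after 1 h of Act D than before it, in both genotypes, with no overlap between the libraries of the 2 times. Among all 13620 genes tested, 48.8% separated in this way in WT and 47.2% in A5-KO. Counts of called genes below rest on limma, and ask for a change of more than 1.5-fold on log2(CPM + 1) as well as an adjusted *p* under 0.05. By that rule 5 members, *SRSF2*, *SRSF3*, *SRSF5*, *SRSF6* and *CLK1*, were lower at 1 h in WT, where 15.3% of all genes were. The 5 called in A5-KO were the same genes, against 16.7% of all genes. At an adjusted *p* below 0.05 alone, 10 of 10 passed in WT (21.9% of all genes) and 9 of 10 in A5-KO (27.3%), *SRSF4* being the exception. The median change of the members was -0.66 in WT and -0.60 in A5-KO, and that of all genes was -0.12 and -0.14.

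**Figure D1:**
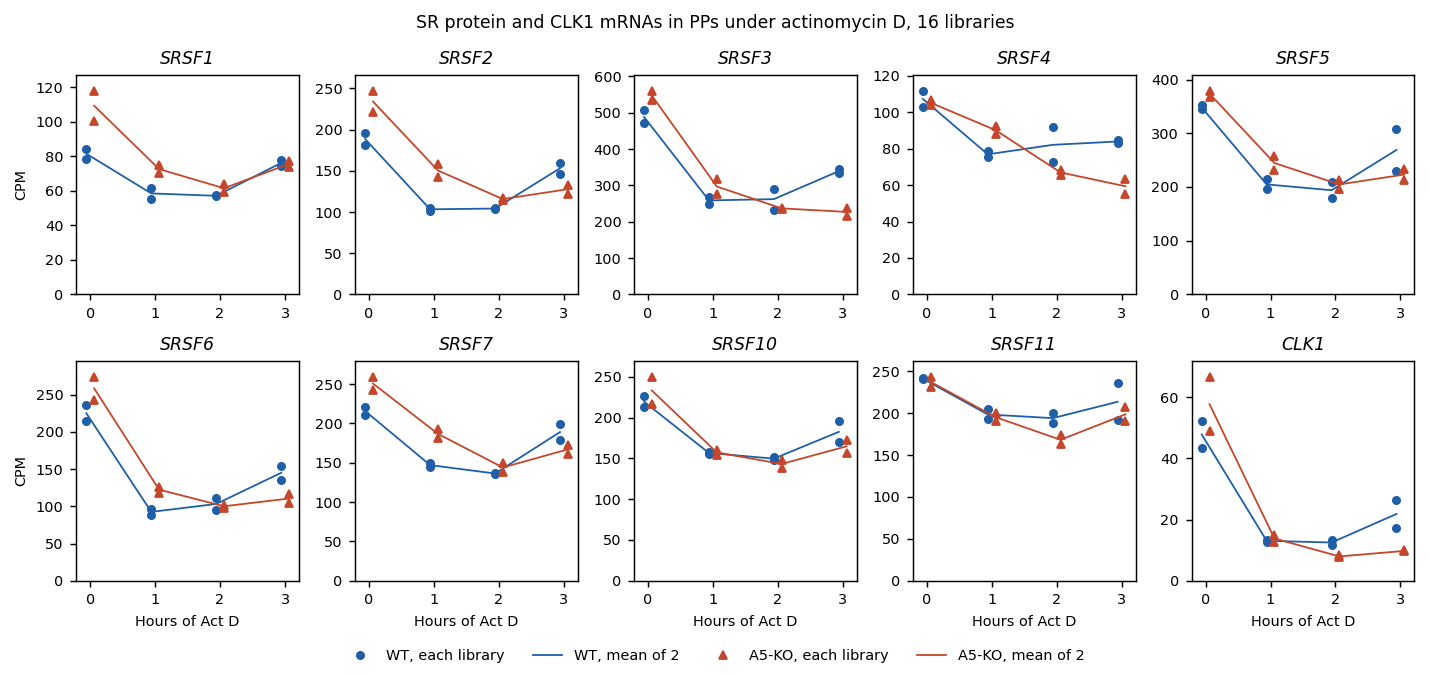
CPM of each of the 10 mRNAs (y axis, from 0) against hours of Act D (x axis) in 8 WT libraries (circles) and 8 A5-KO libraries (triangles); lines join the means of 2 libraries. All mRNAs drop in the first hour, and the lines of *SRSF3*, *SRSF4* and *CLK1* part between the genotypes by 3 h.

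*CLK1*, the kinase, fell furthest of the 10 members. The 2 WT libraries read 52.3 and 43.3 CPM before Act D, 13.4 and 12.7 CPM after 1 h, 11.7 and 13.3 CPM after 2 h, and 17.1 and 26.5 CPM after 3 h. The A5-KO libraries read 66.6 and 48.9 CPM before Act D, 12.8 and 14.9 CPM after 1 h, 8.26 and 7.64 CPM after 2 h, and 9.60 and 9.90 CPM after 3 h. The genotypes overlapped at 0 and 1 h, and every A5-KO library lay below every WT library at 2 and 3 h. The change in the first hour was -1.79 (SE 0.18, adjusted *p* = 1.33e-05) in WT and -1.97 (SE 0.18, adjusted *p* = 6.62e-06) in A5-KO. Of the 0 h mean, 27.3% in WT and 23.9% in A5-KO was left at 1 h.

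*SRSF6*, which promotes exon inclusion in many transcripts, had the steepest first-hour drop among the SRSF genes. It went from 236 and 214 CPM at 0 h to 88.5 and 96.6 CPM at 1 h in WT, and stood at 95.1 and 111 CPM at 2 h and 136 and 154 CPM at 3 h. In A5-KO it went from 274 and 243 CPM to 119 and 126 CPM, then 98.3 and 102 CPM, then 116 and 105 CPM. The first-hour change was -1.27 (SE 0.098) in WT and -1.07 (SE 0.098) in A5-KO, with adjusted *p* of 1.95e-06 and 6.51e-06. The A5-KO libraries were above those of WT at 1 h and below them at 3 h.

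*SRSF3*, the most abundant member in CPM, read 506 and 471 CPM in untreated WT PPs, 248 and 269 CPM after 1 h, 234 and 291 CPM after 2 h, and 333 and 346 CPM after 3 h. A5-KO began at 560 and 534 CPM and read 276 and 318 CPM after 1 h, 238 and 235 CPM after 2 h, and 239 and 215 CPM after 3 h. WT therefore ended above its 1 h level and A5-KO below it. The first-hour change was -0.91 (SE 0.098) in WT and -0.88 (SE 0.098) in A5-KO.

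*SRSF2*, a factor that binds exonic enhancers, read 196 and 181 CPM in untreated WT PPs, 102 and 105 CPM after 1 h, 103 and 105 CPM after 2 h, and 147 and 160 CPM after 3 h. The A5-KO values for the same times were 247 and 221, 143 and 158, 115 and 117, and 133 and 122 CPM. *SRSF2* changed by -0.86 in the first hour in WT and by -0.63 in A5-KO (SE 0.083 in both). The A5-KO call did not hold under median-of-ratios scaling (-0.48), nor without A5-KO 0 h replicate 1 (-0.55) or A5-KO 1 h replicate 1 (-0.56), where the change stayed under 1.5-fold. *SRSF5*, whose mRNA is induced by insulin in some cells, changed by -0.76 in WT and -0.61 (SE 0.11 in both) in A5-KO, and the A5-KO call ended in the same way under median-of-ratios scaling (-0.46) and without A5-KO 1 h replicate 1 (-0.53).

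*SRSF1*, *SRSF4*, *SRSF7*, *SRSF10* and *SRSF11* were lower by less than 1.5-fold on log2(CPM + 1) after the first hour in both genotypes. *SRSF1* in A5-KO was near that limit at -0.58, with 66.4% of its 0 h mean left, and was called with a pseudocount of 0.1. With 1 library left out, *SRSF1* ran from -0.69 to -0.47 and *SRSF10* from -0.66 to -0.46 in A5-KO. *SRSF7* ran from -0.59 to -0.51 in WT, so each of them could exceed 1.5-fold. *SRSF11*, an SR-related protein that binds the splicing factor U2AF, moved least in WT. Both untreated WT libraries read 241 CPM, and after 1 h they read 204 and 193 CPM. A5-KO went from 243 and 232 CPM to 200 and 191 CPM. That change was -0.28 (SE 0.089) in each genotype, with adjusted *p* of 0.0319 and 0.0234.

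**Figure D2:**
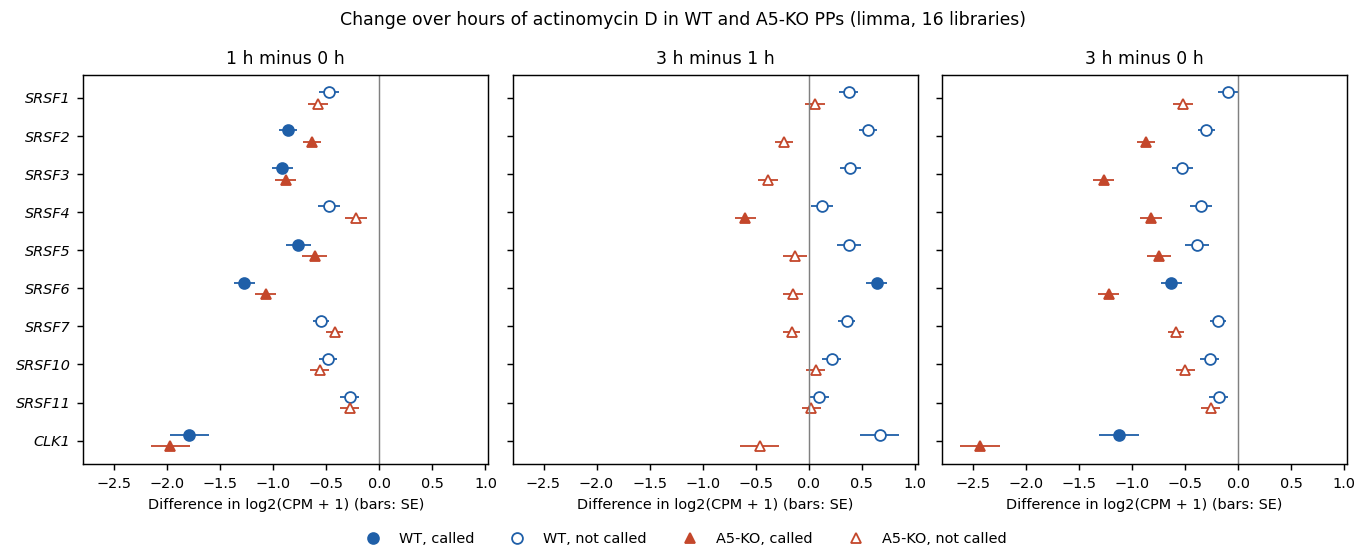
Difference in log2(CPM + 1) (x axis, bars 1 SE) for each mRNA over 3 intervals of Act D in WT (circles) and A5-KO (triangles); filled symbols changed more than 1.5-fold with an adjusted *p* under 0.05. From 1 to 3 h all 10 WT values lie above 0, whereas 7 of 10 A5-KO values lie below 0 (6 under median-of-ratios scaling and 8 under quantile normalization).

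From 1 to 3 h the members' median change was 0.38 in WT, against 0.04 for all genes, and -0.15 in A5-KO, against -0.12. The difference between genotypes was not tested for this interval. In WT, 9 of 10 members were higher in both 3 h libraries than in both 1 h libraries, all but *SRSF11*, against 24.7% of all genes. *SRSF6* alone was called higher (0.485% of all genes were), by 0.64 (SE 0.098, adjusted *p* = 0.00285). At an adjusted *p* below 0.05 alone, *SRSF2* (0.56, adjusted *p* = 0.00196) and *SRSF7* (0.36, adjusted *p* = 0.0439) passed as well, against 0.609% of all genes. The call of *SRSF6* was lost without WT 1 h replicate 1 (0.58) or WT 3 h replicate 2 (0.55). Without WT 3 h replicate 1 the members' median change was 0.43. *CLK1* was higher by 0.67 (SE 0.18, adjusted *p* = 0.151), and passed without WT 3 h replicate 1 (0.97, adjusted *p* = 0.0208).

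In A5-KO, 0 of 10 members were higher in both 3 h than in both 1 h libraries and 6 were lower in both, against 45.7% of all genes. The members' median of -0.15 lay close to the -0.12 of all genes. The 2 medians were -0.02 and 0.002 under median-of-ratios scaling, and -0.16 and 0.05 under quantile normalization. The genes lower in both were *SRSF2*, *SRSF3*, *SRSF4*, *SRSF6*, *SRSF7* and *CLK1*. *SRSF4*, a long SR protein with an extended arginine-serine domain, was the only one called lower, where 15.5% of all genes were. Its A5-KO values were 104 and 106 CPM before Act D, 88.0 and 92.3 CPM after 1 h, 65.6 and 68.2 CPM after 2 h, and 63.4 and 55.3 CPM after 3 h. Its WT values were 112 and 103, 75.3 and 78.5, 72.5 and 91.7, and 84.7 and 83.2 CPM. *SRSF4* thus changed by -0.60 from 1 to 3 h (SE 0.10, adjusted *p* = 0.000583) in A5-KO, and the call was lost under median-of-ratios scaling (-0.47) and without A5-KO 1 h replicate 2 (-0.56) or A5-KO 3 h replicate 2 (-0.50). *SRSF3* (-0.38, adjusted *p* = 0.0086) and *SRSF2* (-0.23, adjusted *p* = 0.047) passed the adjusted *p* alone, as 22.8% of all genes did.

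Over the whole 3 h, all 10 members were lower than at 0 h in every library of each genotype, against 40.7% of all genes in WT and 55.3% in A5-KO. In WT, *SRSF6* (-0.63, SE 0.098, adjusted *p* = 0.00106) and *CLK1* (-1.12, SE 0.18, adjusted *p* = 0.00135) were called lower, against 10.1% of all genes. *SRSF6* fell short of 1.5-fold under median-of-ratios scaling (-0.54), without WT 0 h replicate 1 (-0.56) and without WT 3 h replicate 1 (-0.54). *SRSF2*, *SRSF3*, *SRSF4* and *SRSF5* passed the adjusted *p* alone, for 6 of 10 in all, against 13.9% of all genes. In A5-KO 6 members were called lower, against 30.9% of all genes, and 10 of 10 passed the adjusted *p* alone, against 41.4%. *CLK1* changed by -2.43 (SE 0.18, adjusted *p* = 5.62e-08), *SRSF3* by -1.27 (SE 0.098, adjusted *p* = 6.67e-08) and *SRSF6* by -1.22 (SE 0.098, adjusted *p* = 9.25e-08). *SRSF2* changed by -0.87, *SRSF4* by -0.82 and *SRSF5* by -0.74. The calls of *SRSF4* and *SRSF5* ended under median-of-ratios scaling, at -0.54 and -0.46. *SRSF11* changed by -0.26 (adjusted *p* = 0.0239), and its sign turned under that scaling (0.025).

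At 3 h, 45.7% of the 0 h mean of *CLK1* was left in WT and 16.9% in A5-KO. *SRSF3* stood at 69.5% in WT and 41.5% in A5-KO, and *SRSF4* at 78.2% and 56.4%. *SRSF1* stood at 93.5% and 69.2%, while *SRSF11* stood at 88.6% and 83.7%.

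The difference between the genotypes in the change from 0 to 3 h was tested as an interaction, called at an adjusted *p* below 0.05. It was negative for 7 of 10 members, against 16.6% of all genes. That is, the 3 h level relative to 0 h was lower in A5-KO than in WT. The test does not tell a fall in A5-KO from a rise in WT, and it takes in the levels at 0 h. *CLK1* had the largest difference at -1.31 (SE 0.26, adjusted *p* = 0.00387), followed by *SRSF3* at -0.74 (SE 0.14, adjusted *p* = 0.00289). *SRSF6* was at -0.59 (adjusted *p* = 0.00978), *SRSF2* at -0.57 (adjusted *p* = 0.00462), *SRSF4* at -0.47 (adjusted *p* = 0.0338), *SRSF1* at -0.43 (adjusted *p* = 0.0335) and *SRSF7* at -0.39 (adjusted *p* = 0.0215). *SRSF5*, *SRSF10* and *SRSF11* did not pass. The members' median was -0.45 and that of all genes -0.17. Between the genotypes, *SRSF1* differed by 0.42 at 0 h and by -0.01 at 3 h.

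*CLK1*, *SRSF2* and *SRSF3* passed this test under all 10 alternatives to the processing and without any 1 of the 16 libraries. The other 4 did not. *SRSF6* lost the call without WT 0 h replicate 2, A5-KO 0 h replicate 1 or A5-KO 3 h replicate 2. *SRSF1*, *SRSF4* and *SRSF7* lost it also under median-of-ratios scaling and without the filter, and the number called was then 4. Under quantile normalization it was 5, without *SRSF1* and *SRSF4*. It was 3 without WT 0 h replicate 2, without A5-KO 0 h replicate 1 or without A5-KO 3 h replicate 2, and 4 without WT 3 h replicate 2.

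For the change from 0 to 1 h, the interaction called 0 of 10 members by limma, edgeR and DESeq2, and 0 had an unadjusted *p* below 0.05. Of all genes, 0.235% were called higher and 0.0% lower. *CLK1* differed by -0.18 (SE 0.26, adjusted *p* = 0.886). A straight line over 0 to 3 h on log2(CPM + 0.1) gave a slope per hour that was lower in A5-KO for all 10 members, or 9 under median-of-ratios scaling, where *SRSF11* turned. By limma 0 of 10 were called, against 2.61% of all genes called lower. The slope of *CLK1* differed by -0.49 per hour (SE 0.28, adjusted *p* = 0.325), and 1 member, *SRSF4*, had an unadjusted *p* below 0.05. With 0 and 3 h alone 7 members were called lower. The share of all genes in that setting is not given here, and the 2.61% belongs to the fit of all 16 libraries. With the 0 and 1 h libraries alone the members' median slope difference was 0.08, above 0.

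The level of other short-lived mRNAs moved with these results. A list of 10 (*JUN*, *IER2*, *KLF10*, *MCL1*, *HES1*, *ID1*, *SOX4*, *BTG2*, *KLF6* and *CCNL1*) was called lower in full at 1 h in both genotypes, against 15.3% of all genes in WT and 16.7% in A5-KO. In WT its median was then higher by 0.56 at 3 h than at 1 h, with 1 gene called, *CCNL1*, whereas in A5-KO it changed by -1.01 with 7 called lower (15.5% of all genes were). Summed over the list, WT was at 333 and 380 CPM at 1 h and 430 and 565 CPM at 3 h, and A5-KO at 419 and 421 and then 228 and 183 CPM. At 3 h 10 of 10 were called lower in A5-KO than in WT (17.7% of all genes), and the interaction called 6 of 10 lower (16.6%). The WT replicates also differed more at 2 and 3 h than at 0 and 1 h, with a median absolute difference of 0.20 and 0.14 on the log2 scale against 0.10 and 0.08. In A5-KO that difference was 0.13, 0.15, 0.07 and 0.08 at 0, 1, 2 and 3 h, so that the pair at 1 h lay as far apart as the WT pair at 3 h. WT 2 h replicate 2 held 462 CPM of the short-lived list and replicate 1 held 246 CPM. Whether transcription was blocked as fully in WT as in A5-KO at 2 and 3 h was not tested, and its part in the difference between genotypes was not tested.

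**Figure D3:**
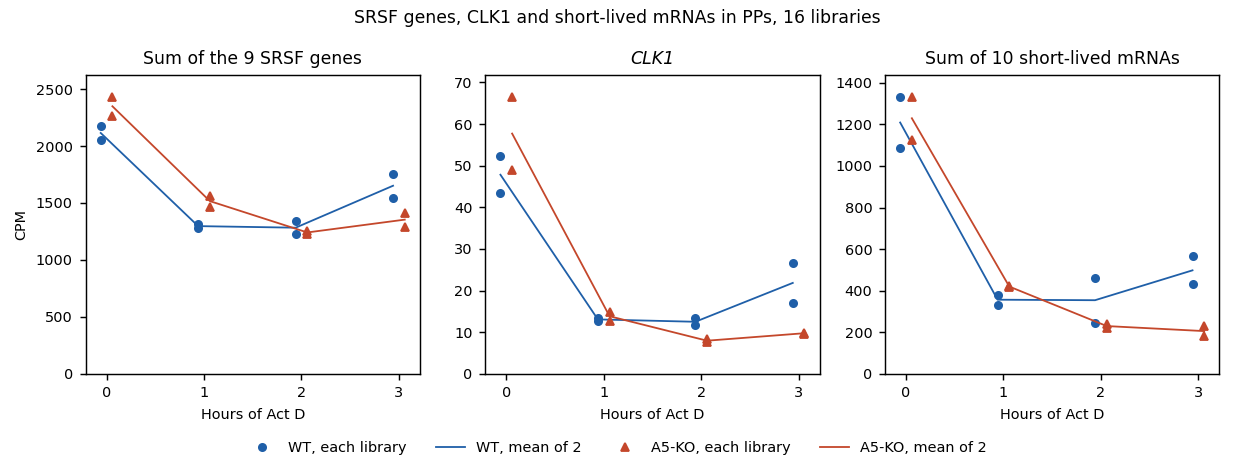
Summed CPM of the 9 SRSF genes, CPM of *CLK1* and summed CPM of 10 short-lived mRNAs (y axes, from 0) against hours of Act D in 16 PP libraries, with lines through means of 2. In WT all 3 rise from 2 to 3 h on average. In A5-KO the SRSF sum rises as well, from 1227 and 1255 CPM to 1415 and 1293 CPM. *CLK1* in A5-KO goes from 8.26 and 7.64 CPM to 9.60 and 9.90 CPM. The short-lived sum in A5-KO goes on falling, to 228 and 183 CPM.

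Before Act D the members' median difference between the genotypes was 0.18, against 0.03 for all genes. At 0 h, 6 of 10 members (*SRSF1*, *SRSF2*, *SRSF3*, *SRSF5*, *SRSF6* and *SRSF7*) were higher in both A5-KO than in both WT libraries, against 29.0% of all genes. None of the 10 was called by limma, edgeR or DESeq2, against 1.57% of all genes called higher and 1.13% lower. By limma 5 had an unadjusted *p* below 0.05, a limit for which the share of all genes is not given here. *SRSF1*, a founding SR protein that also acts in translation and NMD, came closest. It was at 84.3 and 78.5 CPM in WT and at 118 and 101 CPM in A5-KO, a difference of 0.42 (SE 0.097, adjusted *p* = 0.0468), and was the only member past the adjusted *p*, as 2.16% of all genes were. Its adjusted *p* ran from 6.73e-05 to 0.163 over the alternatives and from 0.0111 to 0.286 with a library left out. *CLK1* differed by 0.26 (SE 0.15, adjusted *p* = 0.393).

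After 1 h of Act D, 7 of 10 members were higher in both A5-KO than in both WT libraries, against 32.6% of all genes, and 0 were called by limma, edgeR or DESeq2 (2.94% of all genes were called higher). Without A5-KO 1 h replicate 1, *SRSF2* was called. An unadjusted *p* below 0.05 was reached by 6 members, and the share of all genes at that limit is not given here. *SRSF2* (0.54, SE 0.083, adjusted *p* = 0.000731), *SRSF6* (0.40, adjusted *p* = 0.0209) and *SRSF7* (0.34, adjusted *p* = 0.0135) passed the adjusted *p* alone, as 4.76% of all genes did. *CLK1* differed by 0.07 (SE 0.18).

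After 3 h the sign was the other way. Of 10 members, 6 were lower in both A5-KO than in both WT libraries, against 46.0% of all genes, and *CLK1* was called lower, where 17.7% of all genes were. *CLK1* differed by -1.06 (SE 0.18, adjusted *p* = 0.000494), with 9.60 and 9.90 CPM in A5-KO against 17.1 and 26.5 CPM in WT, and it passed without any 1 library, at -0.75 to -1.36. *SRSF3* (-0.58, adjusted *p* = 0.000384), *SRSF4* (-0.50, adjusted *p* = 0.00167), *SRSF6* (-0.39, adjusted *p* = 0.00701) and *SRSF2* (-0.26, adjusted *p* = 0.0259) passed the adjusted *p* with less than 1.5-fold, as 26.4% of all genes passed it. Without A5-KO 3 h replicate 1, *SRSF3* and *SRSF4* were called as well, and without WT 3 h replicate 1, *SRSF3* was. The members' median was -0.26 and that of all genes -0.13, which median-of-ratios scaling moved to -0.11 and 0.00.

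In hILOs the members differed between the genotypes by -0.36 to 0.08. For 7 of 10 members, all but *SRSF4*, *SRSF10* and *CLK1*, both A5-KO libraries lay below both WT libraries in TPM, against 37.1% of all 17300 genes tested. None was called by limma, where 2.7% of all genes were called higher and 4.09% lower. An unadjusted *p* below 0.05 was found for 5, all of them lower, and its share of all genes is not given here. *SRSF2* read 172 and 186 TPM in hILOs of WT, against 147 and 146 TPM in those of A5-KO, a difference of -0.29 (SE 0.053, adjusted *p* = 0.0408). *SRSF3* read 156 and 151 TPM against 125 and 127 TPM, a difference of -0.28 (SE 0.040, adjusted *p* = 0.025). These were the 2 members past the adjusted *p* alone, as 7.32% of all genes were, and neither passed it once any 1 library was left out. *CLK1* read 87.2 and 80.8 TPM against 90.5 and 87.0 TPM in A5-KO, ranges that overlapped, and differed by 0.08 (SE 0.060, adjusted *p* = 0.43). Over the alternatives to the processing, the limma adjusted *p* reached 0.118 for *SRSF2* and 0.0636 for *SRSF3*. The members' median was -0.18 and that of all genes -0.06, or -0.12 and -0.004 under median-of-ratios scaling. An exact permutation test of 2 against 2 libraries cannot go below 0.33. The islet, hepatocyte and mesenchyme marker sums given above differed between the same libraries, and their part in these differences was not tested.

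**Figure D4:**
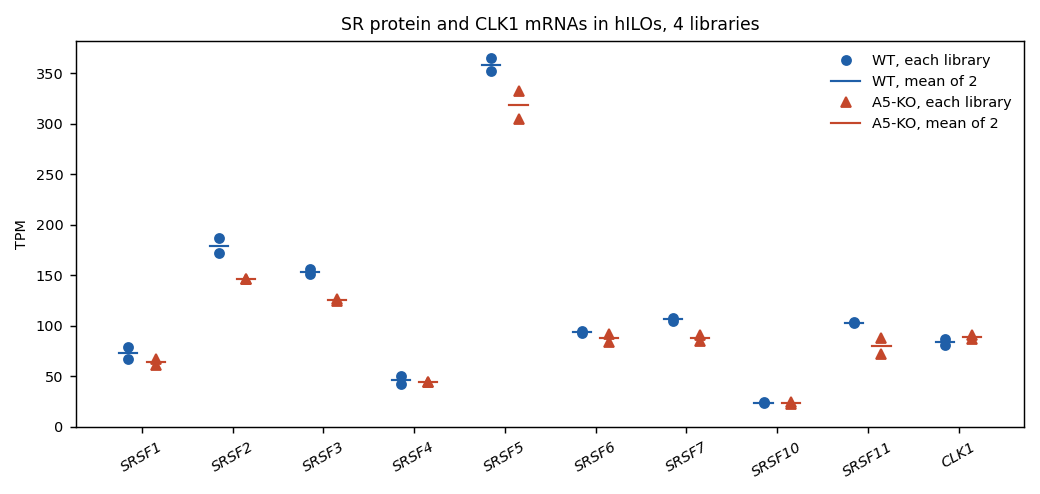
TPM of each mRNA (y axis, from 0) in 2 WT (circles) and 2 A5-KO (triangles) hILO libraries, with short lines at the means of 2. *SRSF5* stands above 300 TPM in all 4 libraries, and the genotypes lie close to each other for every mRNA.

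The kinases and partners of the SR proteins were read from a list of 11, of which 9 passed the filter in PPs. *CLK2* did not, at 0 to 0.776 CPM in the PP libraries, and it read 21.7 to 28.8 TPM in hILOs. These units are not compared, and how reads of *CLK2* were counted in PPs is not given in the sources used here. From 0 to 1 h, 3 of 9 were called lower in WT and 4 of 9 in A5-KO (15.3% and 16.7% of all genes), led by *DYRK1A*, a nuclear kinase of SR proteins, at -1.89 and -1.96. From 0 to 3 h, 4 of 9 were called lower in WT and 7 of 9 in A5-KO, against 10.1% and 30.9% of all genes. The interaction over 3 h called 5 of 9 lower in A5-KO (16.6% of all genes), *DYRK1A* (-1.76, adjusted *p* = 0.0051), *CLK3* (-1.34, adjusted *p* = 0.0042), *CLK4* (-1.23, adjusted *p* = 0.0038) and *DYRK1B* (-0.89, adjusted *p* = 0.021) among them. *CLK3*, a paralogue of *CLK1*, read 27.0 and 28.2 CPM in WT after 1 h and 25.3 and 25.0 CPM after 3 h. Its A5-KO values went from 28.2 and 28.8 CPM to 7.56 and 9.64 CPM over the same interval. *CLK3* and *SRPK2* were also the 2 genes of the list whose slope over 0 to 3 h was called lower in A5-KO (-0.49 and -0.30 per hour), where 2.61% of all genes were. The list's median interaction was -0.86, against -0.45 for the members and -0.17 for all genes.

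Among 22 other proteins with arginine-serine domains or linked to them, 8 were called lower at 1 h in WT and 7 in A5-KO, against 15.3% and 16.7% of all genes. *BUD13*, a part of the complex that retains unspliced pre-mRNA, and *RSRC2* led, at -2.54 and -2.16 from 0 to 3 h in A5-KO and -1.05 and -0.69 in WT. The interaction over 3 h called 4 lower and 1 higher of 22, a share lower near the 16.6% of all genes, with *BUD13* and *RSRC2* (-1.47) as the 2 largest. *SRSF8*, a copy of *SRSF2* with which it can share reads, was at -0.49.

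Of 21 hnRNP genes, whose proteins often oppose SR proteins at exons, 1 was called lower at 1 h in WT and 2 in A5-KO, against 15.3% and 16.7% of all genes. *HNRNPDL*, which like the SR genes limits its own mRNA by alternative splicing, changed by -0.67 and -0.82. The interaction over 3 h called 3 of 21 lower, *HNRNPDL* (-0.66), *SYNCRIP* (-0.50) and *HNRNPF* (-0.37), a share near the 16.6% of all genes, and the list's median was -0.10, against -0.17 for all genes. In hILOs *HNRNPD* alone of the list was called lower in A5-KO, by -0.86 (adjusted *p* = 0.0057), where 4.09% of all genes were. These lists overlap none of the 10 members.

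Over the 8 PP groups, Pearson's *r* between pairs of members, on group means of log2(CPM + 1), ran from 0.56 for *SRSF1* and *SRSF4* to 0.99 for *SRSF3* and *CLK1*, with a median of 0.91. All points share the Act D time course, so this is a description only. Of 8910 genes that averaged 10 CPM or more, those most like *CLK1* by this measure were *ZNF12*, *KANSL2*, *DHX15*, *PRPF4B* and *TRMT6* (*r* from 0.995 to 0.997). Those most like the mean of the 9 SRSF genes were *RABGGTB*, *ZNF252P*, *ZNF587B*, *NIP7* and *PLRG1* (*r* from 0.992 to 0.998).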

How the data were processed

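PP libraries were deposited by the authors as CPM per gene, relative to the library total after the ERCC spike-ins were removed, and hILO libraries as TPM from StringTie. The authors trimmed reads with fastp and aligned them to GRCh38 with HISAT2 (2.1.0, per the submitters' processing notes). The read counter and strandedness behind the CPM are not given in the sources used here. Because CPM is a share of the library, a change under Act D is relative to the other RNAs left. All CPM values came out as whole reads (100% within 0.05 of a read), so reads were recovered for edgeR and DESeq2. TPM keeps no depth, so hILO counting error is unknown. Genotype, time and replicate came from the labels. The study describes its replicates as biological and independent, but whether each came from a separate differentiation is not given in the sources used here.

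Values were compared with limma (3.58.1, in R 4.3.3, with trended eBayes) on log2(value + 1), or + 0.1 for slopes. Genes under a mean of 1 were left out. hILOs and 0 h PPs were fitted alone, and all other PP comparisons in 1 fit of 8 groups. Fold changes on this scale understate those of low genes. *p*-values were adjusted by Benjamini-Hochberg over all genes tested, and 13 comparisons were made. The code was tested on simulated data. The alternatives were other filters, pseudocounts, scalings, robust eBayes, the replicate block, no 2 h groups, edgeR (4.0.16) and DESeq2 (1.42.0) on recovered reads, and each library left out. All 10 members are named, and from each list at most 4 called genes per comparison with the largest changes. *CLK2* and the examples of values at other times were chosen after their values were seen. The members and lists were chosen with earlier results of these data known. Coordinates, transcripts and sequences come from GENCODE and GRCh38.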

Additional observations from a re-analysis of the deposited data

Results flagged for a closer look

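The change from 0 to 3 h of Act D differed between WT and A5-KO PPs by a limma interaction test for 7 members. The differences on log2(CPM + 1), A5-KO minus WT, were -0.43 for *SRSF1*, -0.57 for *SRSF2*, -0.74 for *SRSF3*, -0.47 for *SRSF4*, -0.59 for *SRSF6*, -0.39 for *SRSF7* and -1.31 for *CLK1*, each with a loss in both A5-KO libraries. All genes had a median of -0.17. The 10 short-lived mRNAs had a median of -1.41 in the same test, and their part in the members' difference was not tested. No group held the 4 to 10 libraries needed to look for a single library far from its group.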

How the results depend on the processing

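Of the member results followed across settings, 66 in all, the replicate block changed 0, and the counts of members called stayed at 5 and 5 lower (0 to 1 h, WT and A5-KO), 2 and 6 lower (0 to 3 h) and 7 lower (interaction over 3 h). The labels give both genotypes the same replicate numbers, but deviations of same-numbered libraries correlated at 0.18, -0.01, -0.06 and -0.02 in PPs at 0 to 3 h and at -0.01 in hILOs, so the numbers were not taken as pairs. Median-of-ratios scaling weakened 9 of 66 results. Under it, edgeR and DESeq2 the counts called lower moved from 5 to 3 (A5-KO, 0 to 1 h), from 1 to 0 (A5-KO, 1 to 3 h), from 2 to 1 (WT, 0 to 3 h), from 6 to 4 (A5-KO, 0 to 3 h) and from 7 to 4 (interaction over 3 h, where no filter also gave 4). Quantile normalization moved A5-KO 1 to 3 h from 1 to 0, A5-KO 0 to 3 h from 6 to 7, 3 h A5-KO against WT from 1 to 2 and the interaction over 3 h from 7 to 5, DESeq2 moved WT 1 to 3 h from 1 to 2 higher, and the 0 and 3 h libraries alone moved the slope from 0 to 7. *SRSF11* in A5-KO from 0 to 3 h turned to 0.025 under median-of-ratios scaling, 0.024 under edgeR and 0.025 under DESeq2. *CLK1* turned to -0.030 at 1 h without A5-KO 1 h replicate 2. In the interaction over 1 h it ran from -0.40 to 0.036 with 1 library left out, and turned without A5-KO 0 h replicate 1.

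With 1 library left out, the counts ran from 0 to 4 (WT, 1 to 3 h, higher), 0 to 1 (A5-KO, 1 to 3 h), 1 to 3 (WT, 0 to 3 h), 0 to 1 (1 h, higher), 1 to 3 (3 h), 3 to 7 (interaction over 3 h) and 0 to 1 (slope, 1 without WT 0 h or WT 2 h replicate 1). The counts called lower from 0 to 1 h in both genotypes and from 0 to 3 h in A5-KO also varied with the library left out. The cause of these moves was not tested. Median-of-ratios scaling moved the median of all genes by 0.12 and 0.14 (0 to 1 h, WT and A5-KO), 0.12 (A5-KO, 1 to 3 h), 0.25 (A5-KO, 0 to 3 h), 0.13 (3 h) and 0.17 (interaction over 3 h). The share of calls that were lower went from 94.1% to 78.0%, from 94.9% to 84.2%, from 93.5% to 66.8%, from 93.9% to 82.0% and from 90.6% to 65.3% in the last 5 of these. With 2 libraries a group, the spread between replicates rather than depth limits the precision.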
